A study of Mus musculus with 4 samples.

Results

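Cajal-Retzius cells are early-born neurons that lie in the marginal zone, the outermost layer of the developing cortex just under the meninges. They arise at the rim of the cortex (the cortical hem, the septum and the border of the pallium and subpallium), spread over its surface and secrete reelin, which guides the layering of the neurons born after them. The genes followed here mark these cells: Trp73, Lhx1, Lhx5, Ebf2, Ebf3 and Nhlh2, which encode transcription factors, Calb2, which encodes the calcium-binding protein calretinin, and Ndnf, which encodes a secreted protein. All 8 were found among the 19844 genes listed in both deposited tables, and all 8 passed the filter on low counts that left 16269 genes for testing.

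The data are bulk RNA-seq of total RNA from cortex of C57BL/6 mouse embryos at E16.5. There are 4 libraries: WT1 and WT4 are labelled wild type (replicates 1 and 4), and cKO1 and cKO2 (replicates 1 and 2) are labelled as lacking H2A.Z.2, a variant of histone H2A, through a conditional knockout (cKO). The Cre line, the deleted exons and the number of embryos in a library are not given in the sources used here. Nothing says that libraries came from separate embryos, so the spread that the p-values rest on may be technical. In bulk tissue, fewer cells of a type and less RNA per cell cannot be told apart.

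Gene counts summed to between 16625181 and 17940659 reads per library. H2afv, which encodes H2A.Z.2, was at 136 CPM in WT1, 222 in WT4, 128 in cKO1 and 127 in cKO2. CPM is the count scaled to library size, with TMM normalisation. Its log2 fold change, cKO over wild type, was -0.49 (SE 0.23, edgeR adjusted p = 0.956). Since cKO1 and cKO2 lay close to WT1, they are called the cKO-labelled libraries here. Of the dorsal cortex genes, Neurod6 was at 676 to 1156 CPM and Neurod2 at 577 to 1059 CPM over the 4 libraries, so markers of the labelled tissue were present. WT4 stood apart: the chi-square per gene was 31.7 to 38.9 between it and each other library, and 6.10 to 11.5 among the other 3.

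The Cajal-Retzius genes did not move as a block between wild type and the cKO-labelled libraries. Of the 8, 5 had a log2 fold change below 0 (51.9% of all genes tested) and 3 above 0 (48.1%), and none passed the test. The edgeR quasi-likelihood test with Benjamini-Hochberg adjustment called 0 of 8, with 0 of 8 at an unadjusted p below 0.05. Over all 16269 genes tested it called 0%, with 1.67% at an unadjusted p below 0.05. DESeq2 also called 0% of all genes, and 1 of the 8, Ndnf, had an unadjusted DESeq2 p below 0.05, as did 2.32% of all genes. The median log2 fold change of the 8 was -0.34, against -0.013 over all genes tested. That median rests on WT4, since it was 0.17 without that library and -0.78 without WT1.

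The 6 transcription factor genes were all highest in WT4, and Calb2 and Ndnf were both lowest there. Over all genes tested, 37.6% were highest and 36.3% lowest in that library. The 6 factors summed to 62.4 CPM in WT1, 110.2 in WT4, 65.5 in cKO1 and 71.9 in cKO2. The sum over all 8 genes was 102 CPM in WT1, 136 in WT4, 110.0 in cKO1 and 122 in cKO2. On this sum the groups overlapped, with 119 ± 24.3 CPM in wild type and 116 ± 8.58 CPM in the cKO-labelled libraries (SD, n = 2 each).

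**Figure D1:**
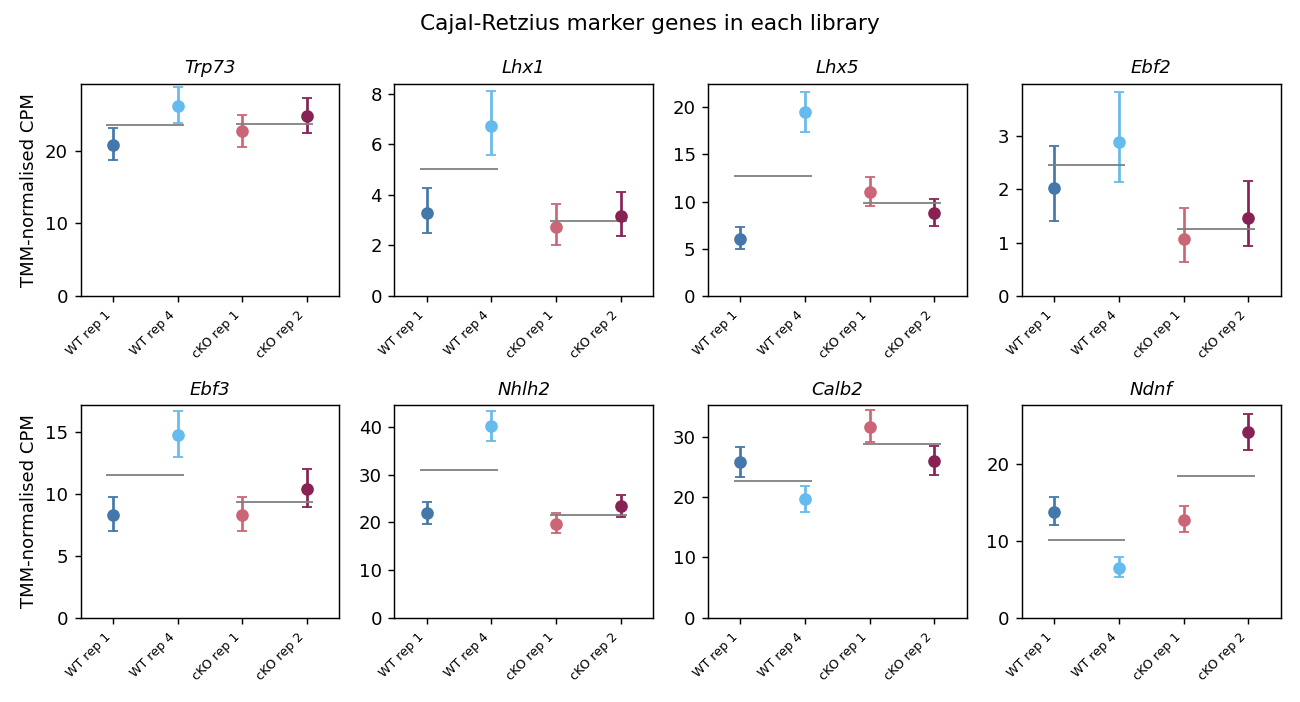
TMM-normalised CPM of the 8 Cajal-Retzius marker genes in each library, with exact Poisson 95% intervals of the read count as bars and group means as grey lines (n = 2 each). The transcription factor genes peak in WT4, most steeply Lhx5 at 19.4 CPM against 6.06 CPM in WT1, while Calb2 and Ndnf are lowest there. For Trp73 the WT4 interval overlaps that of cKO2, and for Ebf2 it overlaps that of WT1.

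Trp73 encodes p73, a transcription factor of the p53 family that in the developing mouse cortex is a hallmark of Cajal-Retzius cells, many of which are lost when it is deleted. The gene (ENSMUSG00000029026, chromosome 4, 154056253 to 154140208 on GRCm38, minus strand) was the steadiest of the 8. Its level was 20.9 CPM in WT1, 26.2 in WT4, 22.7 in cKO1 and 24.8 in cKO2 (362, 444, 406 and 426 reads). Both cKO-labelled libraries lay between the wild-type libraries, and the highest library exceeded the lowest 1.26-fold. A log2 fold change of 0.013 was fitted (SE 0.19, 95% confidence interval -0.45 to 0.48, edgeR adjusted p = 0.993). Scaling by library totals alone turned it to -0.021.

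Trp73 has 2 annotated start regions, and counts per gene add them up. The distal start gives TAp73, the form with the transactivation domain, and the internal start gives deltaNp73, the shorter form known as the main one in the embryonic mouse brain. The RefSeq start sites on GRCm38.p6 lie 42702 bases apart on the minus strand of chromosome 4, at 154139875 and 154097173. The 250 bases before the distal start are 77.2% G and C, those before the internal start 58.4%, and the median over all 32536 RefSeq windows of that length is 52.4%. Both windows lie within the annotated gene. The distal one begins inside a GENCODE exon of Trp73, and the internal one lies outside its exons. The internal promoter is shown because it precedes the deltaNp73 start. Its capitals mark a GC box (GGGCGG), which 33% of all windows hold on either strand.
Trp73 internal promoter, chr4:154097174-154097423, minus strand, GRCm38.p6: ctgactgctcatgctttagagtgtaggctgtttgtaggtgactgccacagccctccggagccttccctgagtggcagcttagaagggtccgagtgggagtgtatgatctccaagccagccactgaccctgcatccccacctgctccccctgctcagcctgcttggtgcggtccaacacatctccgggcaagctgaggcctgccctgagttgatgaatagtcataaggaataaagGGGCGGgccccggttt
How the reads of Trp73 divided between the 2 starts cannot be read from counts per gene.

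Lhx1 and Lhx5 are paralogs that encode LIM homeodomain transcription factors. Lhx5 is needed in the mouse for the hem and for the spread of Cajal-Retzius cells, and both genes are also used in the diencephalon. Lhx1 (ENSMUSG00000018698, chromosome 11, 84518284 to 84525535, minus strand) had a level of 3.29 CPM in WT1, 6.74 in WT4, 2.74 in cKO1 and 3.15 in cKO2. The cKO-labelled libraries lay below both wild-type libraries, but cKO2 and WT1 differed by 3 reads, 54 against 57. Its log2 fold change was -0.77 (SE 0.42, 95% confidence interval from -1.79 to 0.26, edgeR adjusted p = 0.956). The value was -0.15 without WT4 and -1.19 without WT1.

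Lhx5 (ENSMUSG00000029595, chromosome 5, 120431699 to 120441223, plus strand) spread most widely among the transcription factor genes. It was at 6.06 CPM in WT1, 19.4 in WT4, 11.0 in cKO1 and 8.75 in cKO2. The wild-type libraries were the lowest and the highest of the 4, and they differed 3.21-fold, with both cKO-labelled libraries between them. The log2 fold change of -0.37 (SE 0.52, edgeR adjusted p = 0.960) turned to 0.71 without WT4 (adjusted p = 1.00), and it was called lower at -0.98 without WT1 (adjusted p = 0.0298). Without WT1 the test called 4.96% of all genes lower and 4.88% higher. An antisense gene, Gm27199, shares 69 exonic bases with Lhx5 and had 20 to 37 reads, against 105 to 329 reads of Lhx5. The sources used here do not say whether reads were counted by strand.

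Per kilobase of exon, Lhx5 exceeded Lhx1 in every library, but by differing ratios. The ratio was 2.79 in WT1, 4.37 in WT4, 6.06 in cKO1 and 4.21 in cKO2. It was lowest in WT1, and WT4 lay between the cKO-labelled libraries.

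Ebf2 and Ebf3 encode early B-cell factors, DNA-binding proteins with a helix-loop-helix domain. In mouse cortex Ebf2 labels Cajal-Retzius cells from the hem, and Ebf3 is expressed in Cajal-Retzius cells of several origins. Ebf2 (ENSMUSG00000022053, chromosome 14, 67233292 to 67430918, plus strand) had the fewest reads of the 8 genes, 35 in WT1, 49 in WT4, 19 in cKO1 and 25 in cKO2. In CPM these were 2.02, 2.90, 1.06 and 1.46. Both wild-type libraries were above both others, and the log2 fold change of -0.96 (SE 0.42, with a 95% confidence interval from -1.98 to 0.06) was the most negative of the 8. It did not pass the test (edgeR adjusted p = 0.956, unadjusted p = 0.0606). Leaving out any 1 library kept it between -1.20 and -0.67. At these read counts the Poisson intervals of cKO2 (0.944 to 2.15 CPM) and WT1 (1.41 to 2.81 CPM) overlap. That of WT4 (2.14 to 3.83 CPM) lies clear of cKO1 (0.64 to 1.66 CPM). These intervals cover counting error only.

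Ebf3 (ENSMUSG00000010476, chromosome 7, 137193673 to 137314445, minus strand) had a level of 8.31 CPM in WT1, 14.7 in WT4, 8.28 in cKO1 and 10.4 in cKO2. WT1 and cKO1 were nearly level, and the groups overlap. The log2 fold change of -0.30 (SE 0.33, edgeR adjusted p = 0.956) turned to 0.17 without WT4. The ratio of Ebf3 to Ebf2 per kilobase of exon was 3.09 in WT1, 3.81 in WT4, 5.85 in cKO1 and 5.34 in cKO2. Both cKO-labelled libraries had the higher ratios. The difference in this ratio was not tested.

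Nhlh2 (ENSMUSG00000048540, chromosome 3, 102010076 to 102015492, plus strand) encodes a basic helix-loop-helix factor of newly formed neurons, which also acts in the hypothalamus. It was at 21.9 CPM in WT1, 40.1 in WT4, 19.7 in cKO1 and 23.3 in cKO2. WT1 lay between the cKO-labelled libraries, and WT4 stood above all, its Poisson interval of 37.2 to 43.3 CPM clear of the other 3. The fitted log2 fold change was -0.53 (SE 0.30, edgeR adjusted p = 0.956). It was -0.017 without WT4, and it was called lower at -0.90 without WT1 (adjusted p = 0.0152).

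RefSeq promoter windows were found for 4 of the 8 genes, Trp73, Lhx1, Ebf3 and Nhlh2. Those of Lhx1, Ebf3 and Nhlh2 are shown for that reason, each cut where an exon in GENCODE begins. Capitals mark GC boxes (GGGCGG or its complement CCGCCC). The windows of the 4 genes were also searched on both strands for the E-box CAGCTG and the homeodomain core TAATTA, and no 2 matches overlap.
Lhx1, chr11:84525536-84525784, minus strand: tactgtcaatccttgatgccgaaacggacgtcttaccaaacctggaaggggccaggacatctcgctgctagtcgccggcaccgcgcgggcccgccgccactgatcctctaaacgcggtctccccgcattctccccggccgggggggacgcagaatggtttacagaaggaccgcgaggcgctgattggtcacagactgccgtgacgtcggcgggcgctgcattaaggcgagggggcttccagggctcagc
Ebf3, chr7:137314446-137314695, minus strand: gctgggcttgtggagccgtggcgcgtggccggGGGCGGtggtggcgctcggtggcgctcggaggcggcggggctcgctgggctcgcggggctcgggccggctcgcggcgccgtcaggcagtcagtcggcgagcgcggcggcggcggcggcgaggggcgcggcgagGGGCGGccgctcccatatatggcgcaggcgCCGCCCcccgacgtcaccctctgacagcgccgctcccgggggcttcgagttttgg
Nhlh2, chr3:102009895-102010075, plus strand: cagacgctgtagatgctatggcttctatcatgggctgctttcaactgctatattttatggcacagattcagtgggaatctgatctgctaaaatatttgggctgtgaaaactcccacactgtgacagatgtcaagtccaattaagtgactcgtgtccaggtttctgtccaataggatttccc
The 3 windows differ in base composition, with 64.8% G and C for Lhx1, 80% for Ebf3 and 42% for Nhlh2 over the full 250 bases. Ebf3 holds 3 GC boxes and the windows of Lhx1 and Nhlh2 hold none. The E-box CAGCTG, present in 13.1% of all windows, was found only before the distal start of Trp73, 187 bases upstream. That window begins inside a GENCODE exon of Trp73. TAATTA (4.84% of all windows) was in none of the 5 windows of these genes. These matches describe letters and say nothing of binding.

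Calb2 (ENSMUSG00000003657, chromosome 8, 110137502 to 110168210, minus strand) is used for calretinin staining of Cajal-Retzius cells, and cortical interneurons and thalamic neurons express it too. It was at 25.8 CPM in WT1, 19.6 in WT4, 31.7 in cKO1 and 26.0 in cKO2. The cKO-labelled libraries lay above both wild-type libraries, though cKO2 and WT1 differed by 1 read, 446 against 447. Its log2 fold change was 0.35 (SE 0.21, 95% confidence interval from -0.16 to 0.86, edgeR adjusted p = 0.956).

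Ndnf (ENSMUSG00000049001, chromosome 6, 65671590 to 65712326, plus strand), which encodes neuron-derived neurotrophic factor, marks Cajal-Retzius cells in the embryonic marginal zone and layer 1 interneurons after birth in the mouse. It was at 13.8 CPM in WT1, 6.50 in WT4, 12.8 in cKO1 and 24.1 in cKO2. WT4 was lowest and cKO2 highest, 3.71-fold apart, and cKO1 lay just below WT1. At 0.86 (SE 0.44), its log2 fold change was the most positive of the 8 (95% confidence interval from -0.21 to 1.93, edgeR adjusted p = 0.956). It ranged from 0.33 without cKO2 to 1.51 without WT1, and only the latter was called (adjusted p = 0.0293).

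The groups failed to overlap in 3 of the 8 genes, with Lhx1 and Ebf2 lower and Calb2 higher in the cKO-labelled libraries. Over all genes tested this held for 31.6%, with 15.7% lower and 16% higher. Without WT1 the test called 3 of the 8 genes, Lhx5 and Nhlh2 lower and Ndnf higher, against 9.84% of all genes. Each such fit holds 1 wild-type library, assumed to vary like the others. Without WT4 it called none of the 8 and 0% of all genes.

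**Figure D2:**
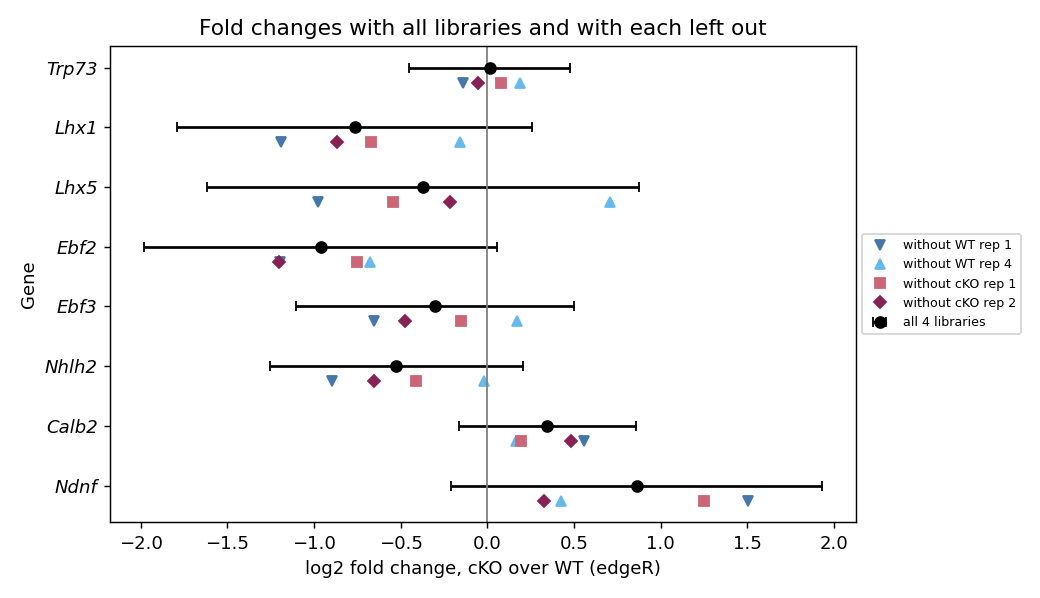
Log2 fold change of each gene, cKO over wild type, from edgeR with all 4 libraries (black, bars are 95% confidence intervals) and with each library left out (coloured symbols, drawn just below). All 8 intervals include 0, and leaving out WT4 moved Lhx5 from -0.37 to 0.71.

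Set against WT1 alone, the cKO-labelled libraries split over the genes. Both were above it for Trp73, Lhx5 and Calb2, both below it for Lhx1 and Ebf2, and on either side of it for Ebf3, Nhlh2 and Ndnf. Of all genes tested, 29.3% had both above and 30% both below. These comparisons share WT1. On the log2 scale, Ebf2 differed by -0.93 in cKO1 and -0.47 in cKO2, and Lhx5 by 0.86 and 0.53. For Calb2 the values were 0.30 and 0.013. WT4 differed from WT1 by 1.68 for Lhx5, 1.03 for Lhx1 and -1.08 for Ndnf. It was more than 1.5 times WT1 in 4 of the 8 genes, against 11.8% of all genes.

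**Figure D3:**
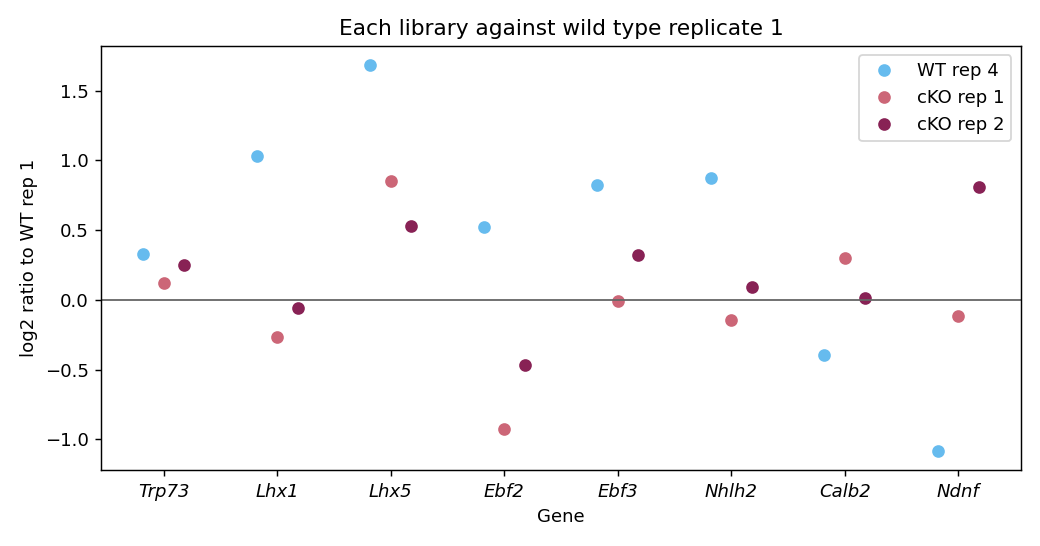
Log2 ratio of CPM in WT4, cKO1 and cKO2 to WT1, for each gene. WT4 spans from -1.08 (Ndnf) to 1.68 (Lhx5), while the cKO-labelled libraries lie between -0.93 (Ebf2, cKO1) and 0.86 (Lhx5, cKO1).

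The authors' deposited tables each set 1 library against 1, so their p-values cannot take in the spread between libraries of a group. In the authors' deposited table that sets cKO1 against WT4, Lhx1 (log2 fold change -1.33), Ebf2 (-1.48) and Nhlh2 (-1.05) are marked as significantly lower, as are 4.21% of the genes it lists, with 4.51% marked higher and none of these 8 among them. The authors' deposited table that sets cKO2 against WT1 marks none of the 8, against 1.16% of its genes lower and 0.464% higher. There Lhx1 is at -0.10, Ebf2 at -0.50 and Nhlh2 at 0.06. Lhx5, marked in neither, changes sign, at -0.86 with cKO1 against WT4 and 0.50 with cKO2 against WT1. Ndnf is at 0.94 and 0.77 in the authors' deposited tables, below their log2 limit of 1. The first sets cKO1 against the library lowest in Ndnf, and the second sets the highest against WT1.

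Per kilobase of exon, Calb2 ranked first and Ebf2 last of the 8 in all 4 libraries. Calb2 was at 13.0 ± 2.50 CPM per kilobase in wild type and 16.6 ± 2.31 in the cKO-labelled libraries (SD, n = 2 each). Nhlh2 (5.72 ± 2.38 and 3.98 ± 0.469), Trp73 (4.26 ± 0.685 and 4.30 ± 0.274) and Lhx5 (4.74 ± 3.52 and 3.67 ± 0.582) formed a middle group, whose members changed places between libraries and did not differ beyond their spread. Ndnf (1.00 ± 0.509 and 1.82 ± 0.797), Ebf3 (1.25 ± 0.491 and 1.01 ± 0.161) and Lhx1 (1.23 ± 0.599 and 0.723 ± 0.0711) came next. In the wild-type libraries these 3 did not differ beyond their spread either. Ebf2 stood below them at 0.355 ± 0.0896 and 0.182 ± 0.0404 CPM per kilobase.

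**Figure D4:**
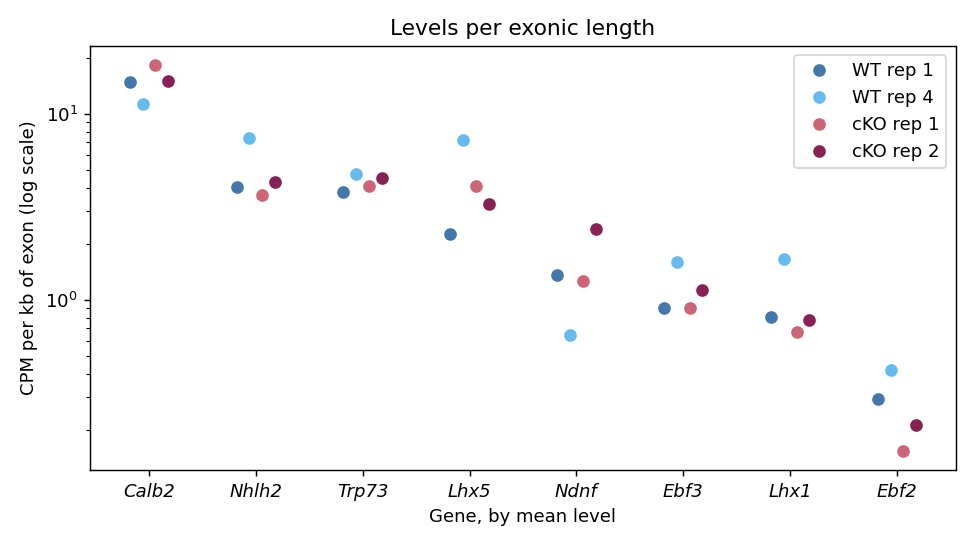
CPM per kilobase of GENCODE exon (log axis) for each gene and library, ordered by the mean over 4 libraries. Calb2 is first, at 11.3 to 18.2 CPM per kilobase, and Ebf2 last, at 0.153 to 0.418, in every library.

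The likeness of profiles was measured as the Euclidean distance between log2 CPM values centred on each gene's mean over the 4 libraries. Among the 8, the closest were Ebf3 and Nhlh2 (0.22) and Lhx1 and Nhlh2 (0.22). Seen from Nhlh2, Ebf3 ranked 142 among the 16268 other genes tested. The nearest fellow gene of the 8 ranked 79 for Lhx1, 173 for Ebf3 and 193 for Ebf2. For the rest it ranked far lower, at 910 for Lhx5, 3304 for Ndnf, 8373 for Trp73 and 9309 for Calb2. For genes that spread over more than 1 log2 unit, the nearest gene was Igf2bp2 for Nhlh2 (distance 0.035), Zgrf1 for Lhx1 (0.07), Soga3 for Lhx5 (0.10), Gm6286 for Ebf2 (0.13) and Ntf3 for Ndnf (0.14). Igf2bp2 was at 43.8, 80.1, 38.4 and 46.4 CPM in WT1, WT4, cKO1 and cKO2.

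Other genes of Cajal-Retzius cells showed no common direction. Of a list of 10 such genes, all tested, 4 had a log2 fold change above 0 and 6 below, 0 were called, and the median was -0.21. Reln, which encodes reelin and is also made by interneurons, was at 165 CPM in WT1, 163 in WT4, 163 in cKO1 and 209 in cKO2 (log2 fold change 0.19, SE 0.15, edgeR adjusted p = 0.956). Cacna2d2, a calcium channel subunit, was at 82.3, 90.4, 119 and 81.8 CPM in the same order, and Tbr1, a transcription factor also of deep-layer neurons, had a log2 fold change of 0.04. Nr2f2, an orphan nuclear receptor also of caudal interneurons, had the smallest unadjusted p of the list (0.0343). It was at 97.3, 123, 80.7 and 40.0 CPM (log2 fold change -0.87, SE 0.32, edgeR adjusted p = 0.956).

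Genes of the regions that give rise to Cajal-Retzius cells had their lowest sum in cKO2. Of 16 listed, 13 were tested, 4 with a log2 fold change above 0 and 9 below, with a median of -0.42 and 0 called. The summed level was 119 CPM in WT1, 153 in WT4, 113 in cKO1 and 86.4 in cKO2. The sum was highest in WT4, but the median log2 difference of WT4 from WT1 over these genes was -0.31. Of the 13, 5 were highest in WT4 and 3 lowest, against 37.6% and 36.3% of all genes tested. Of the 13, 9 were lowest in cKO2, as were 24.4% of all genes tested, and 1, Rspo3, was highest there. Dmrta2, a transcription factor of dorsal midline patterning, was at 21.4 CPM in WT1, 53.1 in WT4, 20.8 in cKO1 and 16.8 in cKO2 (log2 fold change -0.99, SE 0.41). Axin2, a Wnt target, and Rspo3, a Wnt enhancer, had log2 fold changes of -0.26 and -0.08. The guidance genes Cxcl12 (made by the meninges), Cxcr4 and Ackr3 (its receptors) had log2 fold changes of 0.08, 0.05 and -0.20, none called.

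Of 13 paralogs of the 8 genes, 9 were tested, all 9 with a log2 fold change below 0 and a median of -0.33, and 6 of the 9 were highest in WT4. None was called, and the median was 0.013 without that library. Lhx2, a cortical selector gene, was at 238, 365, 228 and 249.8 CPM in WT1, WT4, cKO1 and cKO2. Trp53 and Lhx6 had log2 fold changes of -0.09 and -0.015. Lhx9, a diencephalic gene, was at 16.1, 24.4, 10.7 and 4.32 CPM (log2 fold change -1.42, SE 0.45, edgeR adjusted p = 0.956).

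Markers of other cells also differed between these libraries, and their part in the results was not tested. All 10 genes of dividing progenitors were highest in WT4, where they summed to 1574 CPM against 838 CPM in WT1, 790 in cKO1 and 718 in cKO2. All 6 tested genes of the diencephalon, out of 16 listed, were also highest there, at a sum of 120 CPM against 67.6 in WT1, 72.9 in cKO1 and 30.3 in cKO2. Of these, Otp and Sim1 had 0 reads in cKO2. Sim1 passed the low-count filter only through the wild-type libraries, with 14 reads in WT1 and 43 in WT4, against 8 in cKO1. Among listed genes too low to test, Irx1 and Irx2 were highest in cKO1, Foxb1 and Irx3 in WT4, and none exceeded 11 reads. The 17 genes of interneurons, cells that can also express Calb2 and Ndnf, summed to 1148 CPM in WT1, 1641 in WT4, 1456 in cKO1 and 978 in cKO2. Of these, 9 were highest in WT4, as were 37.6% of all genes tested. In cKO2, 12 were lowest, as were 24.4% of all genes, and 2 were highest. The fewest reads there were of Lhx8 (19) and Nkx2-1 (43, against 372 in WT1, 1616 in WT4 and 709 in cKO1). None of the defining interneuron genes Gad1, Gad2, Dlx1 or Lhx6 was at 0 in any library.

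Genes of the meninges, which lie against the marginal zone, were uneven over the libraries. The 11 tested meningeal fibroblast genes summed to 87.9 CPM in WT1, 26.2 in WT4, 36.5 in cKO1 and 66.2 in cKO2. Col3a1 was at 24.5 CPM in WT1, 6.97 in WT4, 9.62 in cKO1 and 18.7 in cKO2. The library with the lowest meningeal sum, WT4, is the one with the highest sum of Cajal-Retzius transcription factor genes and the lowest Ndnf. WT1 had the highest meningeal sum and the lowest factor sum, 62.4 CPM. But cKO2 exceeded cKO1 in both, with factor sums of 71.9 and 65.5 CPM. The 8 tested choroid plexus genes summed to 510 CPM in cKO1, against 57.7 in cKO2, 36.1 in WT1 and 12.2 in WT4. Most of each sum but that of WT4 was Ttr, which encodes transthyretin, at 465.7 CPM in cKO1, 48.3 in cKO2, 26.7 in WT1 and 0.473 in WT4. The other 7 genes summed to 44.3 CPM in cKO1, 9.39 in cKO2, 9.35 in WT1 and 11.8 in WT4. Otx2 alone made up 8.10 CPM of that WT4 sum. Of the 8 genes, 6 were lowest in WT4, as were 36.3% of all genes tested, and 1, Otx2, was highest there. Among the 8 genes, the ratio of the highest to the lowest library ran from 1.26 for Trp73 to 3.71 for Ndnf. For Lhx5, lowest in WT1, it was 3.21. Whether any of them is related to the meningeal genes was not tested.

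**Figure D5:**
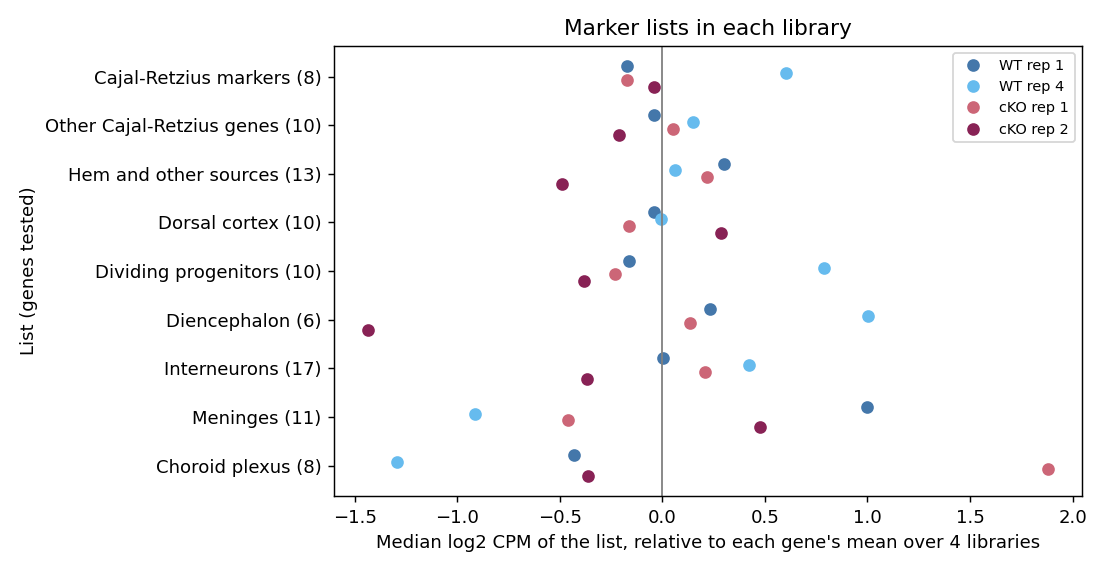
Median of each marker list in each library, as log2 CPM relative to each gene's mean over the 4 libraries, with the number of genes tested in brackets. In WT4 the Cajal-Retzius markers sit at 0.60, dividing progenitors at 0.79 and diencephalon genes at 1.00, while meningeal genes are at -0.92.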

How the data were processed

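Bulk RNA-seq of 4 libraries was read from 2 tables, each pairing 1 cKO with 1 wild-type library. The authors deposited raw read counts per gene, a log2 fold change and p-values for each pair, per the file headers. Bowtie2 2.2.3, TopHat2 2.0.12, HTSeq 0.6.0 and build mm9 are named in the submitters' processing notes. Gene positions nonetheless matched GRCm38: of 22574 genes found in GENCODE M21, 92.1% had the same chromosome, start, end and strand. Each table had 1 emptied line, not used here. Columns were matched to samples by titles in their headers. The 19844 genes in both tables were used.

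Counts were tested with edgeR 4.0.16 in R 4.3.3 (TMM, filterByExpr with a minimum count of 10, quasi-likelihood test, two-sided, Benjamini-Hochberg at 5% FDR over 16269 genes, with 2 residual degrees of freedom and a biological coefficient of variation of 0.194). The script was tested on simulated data. Alternatives were DESeq2 1.42.0, other scalings and filters, the deposited table as a block and each library left out. Poisson intervals (95%) cover counting error only. Promoters are from RefSeq (GRCm38.p6).

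The Cajal-Retzius genes and all lists were chosen with earlier results of these data known. Of each other list, the text names the 3 genes with the highest mean CPM or the 1 with the smallest unadjusted p, and otherwise says why a gene is named.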

Additional observations from a re-analysis of the deposited data

How the results depend on the processing

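By replicate number, no paired analysis was possible because the groups share only 1 number. The deposited tables, which set cKO1 beside WT4 and cKO2 beside WT1, were used as a block instead. No gene passed 5% FDR with edgeR, DESeq2, RLE size factors or library totals, without a filter, with a minimum mean CPM of 1, with the deposited table as a block, or with genes in 1 table only added as 0. With no adjustment, 88 genes had p below 0.05 and a fold change beyond 1 log2 unit either way, and leaving out 1 library gave 0 to 1601, the most without WT1. Under the 7 alternatives that kept all libraries, the 8 genes kept their sign and stayed uncalled, except that Trp73 turned to -0.021 with library totals. With the deposited table as a block, Ndnf had a log2 fold change of 0.89 (edgeR adjusted p = 0.605, range over these alternatives 0.605 to 1.00). With 1 library left out, log2 fold changes ran from -0.14 to 0.19 for Trp73, -1.19 to -0.15 for Lhx1, -0.98 to 0.71 for Lhx5, -1.20 to -0.67 for Ebf2, -0.66 to 0.17 for Ebf3, -0.90 to -0.017 for Nhlh2, 0.17 to 0.56 for Calb2 and 0.33 to 1.51 for Ndnf. Trp73 was below 0 without WT1 or cKO2. The median of the 8 ran from -0.78 to 0.17. The cause was not tested. Without Calb2 the summed level was 76.2 CPM in WT1, 117 in WT4, 78.2 in cKO1 and 96.1 in cKO2. Levels by another gene length were not run, as the tables give none. With 19 to 49 reads, Ebf2 is the gene whose depth limits it most.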

Other observations

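Wnt8b, Wnt3a and Lmx1a, genes of the cortical hem and the medial wall around it, had their lowest counts in cKO2, while Trp73 did not. They are 3 of the 9 genes lowest there among the 13 tested of the list of source regions, in which Rspo3 was highest in cKO2 (359 reads against 345 in WT1, 272 in WT4 and 234 in cKO1) and Rspo2 had 67 reads there against 77, 44 and 65. All genes in this section outside the 8 Cajal-Retzius genes were chosen after their values were seen. Which of the 8 to set beside them was not fixed beforehand either. Wnt8b, a Wnt gene of the medial cortical wall, had 67 reads in WT1, 89 in WT4, 61 in cKO1 and 3 in cKO2. Wnt3a, the hem's signature Wnt, had 38, 15, 22 and 2 reads in the same order, and Lmx1a, a hem transcription factor, had 40, 20, 34 and 12. In cKO2, Trp73 had 426 reads, within its range of 362 to 444 over the 4 libraries, and Ndnf its highest count, 414. Ebf2, a label of hem-derived cells, had 25 reads there, against 35 in WT1, 49 in WT4 and 19 in cKO1. Lhx1 had 54, against 57, 114 and 49 in the same order. None of the 8 was lowest in cKO2. The log2 fold changes over both cKO-labelled libraries were not called (edgeR, Wnt8b -1.34 with SE 0.95, Wnt3a -1.18 with SE 0.92).

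Lhx8, a ventral forebrain gene, was also low in that library, at 19 reads against 151, 529 and 307 in WT1, WT4 and cKO1. Nhlh1, the paralog of Nhlh2, had 277, 878, 311 and 202 reads in WT1, WT4, cKO1 and cKO2. It was highest in the same library as Nhlh2, with a log2 fold change of -1.22 (SE 0.53, edgeR adjusted p = 0.956). Zic1, a zinc-finger gene also expressed in the meninges, was at 36.3, 147, 92.3 and 50.5 CPM. It followed the order of Lhx5 over the 4 libraries, lowest in WT1 and highest in WT4.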
